A study of Caenorhabditis elegans with 4 samples.

Results

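The T16G1 and E02C12 kinase-like genes are 6 genes of chromosome V, named after the genomic clones T16G1 (T16G1.4, T16G1.6 and T16G1.7) and E02C12 (E02C12.6, E02C12.10 and E02C12.11). They were chosen by gene symbol, because they stood among the largest differences between RIF and DMSO in these same arrays, so their differences are given as a description and were not tested. The array reads them through 7 of its 22548 worm probe sets, of which 6 name 1 gene and 1 names both E02C12.10 and E02C12.11. RNA came from whole N2 worms, the wild-type strain, at adult day 8. Worms given rifampicin (RIF), an antibiotic, were measured on 2 arrays, and worms given only its solvent, DMSO, on 2 more. Worms of both groups were kept in liquid on heat-killed E. coli OP50-AMP, which carries the L4440 vector, with carbenicillin, amphotericin B and FuDr, an inhibitor of DNA synthesis that keeps adults free of progeny, with new food on day 5. The labels give no dose of RIF for the arrays. They call the replicates biological without saying what was kept separate, so the SDs below measure the spread between these arrays. The standard errors come from limma, which draws the spread of each probe set towards a value shared over all probe sets. They can thus be larger or smaller than the arrays of 1 probe set alone would give. One field of the labels instead calls the RIF arrays idr-1 RNAi and the DMSO arrays control RNAi. The groups here follow the titles and the design, which give RIF and DMSO.

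Genes of this kind encode proteins with a CHK kinase-like domain, a fold related to that of choline and aminoglycoside kinases, which transfer a phosphate to small molecules rather than to proteins. In insects the related family includes the silkworm kinase that phosphorylates ecdysteroid hormones, and members of the fruit fly family have been proposed to act in detoxification. Nematodes carry many such genes, often side by side on the chromosome, and the substrates of the worm proteins described here are not given in the sources used here.

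All values are on the log2 scale, as the authors deposited them, so a difference of 1 is a 2-fold difference. The 4 arrays had medians of 1.82 to 1.90, and Pearson's r, taken across probe sets (not independent replicates), was 0.981 for the RIF arrays, 0.970 for the DMSO arrays and 0.961 to 0.972 for a RIF with a DMSO array. To judge what an absent transcript reads, 8 of the array's control probe sets were used, whose yeast or bacterial transcripts are foreign to the worm. They read 0.44 to 1.62 over the 4 arrays, and this range is called background below. The DMSO arrays lay on either side of the RIF arrays in RNA quality. The median 5′ minus 3′ difference of 4 control transcripts, lower in more degraded RNA, was -2.39 and -2.37 on the RIF arrays, against -1.68 on DMSO replicate 1 and -3.19 on DMSO replicate 2. With whole worms, fewer cells of a type and less RNA per cell cannot be told apart. Of the tissue markers, unc-54, myo-3 and unc-15 of body wall muscle were lower on the RIF arrays at the unadjusted threshold given below. Their log2 differences were -1.87, -1.20 and -1.93, with adjusted p of 0.531, 0.457 and 0.246 from limma. The log2 values of the 4 muscle markers summed to 10.2 to 11.5 on the RIF arrays and 15.99 to 16.07 on the DMSO arrays. Such a sum of log2 values is not a total amount of RNA. The other muscle marker, unc-22, was at background on all 4 arrays. The log2 values of the 6 intestinal markers summed to 31.2 to 31.5 on the RIF arrays and 28.9 to 31.9 on the DMSO arrays. Of these, vha-6 was lower (-1.23, adjusted p = 0.563 from limma), while elt-2, act-5 and pept-1 had differences of 0.63, 0.78 and 0.77. Those of ges-1 and ifb-2 were -0.07 and 0.08, and the median over the intestinal list was 0.36. Among the intestinal markers only vha-6 passed the threshold given below. None of these differences in single muscle or intestinal markers is established after adjustment over all probe sets. None of the markers of pharynx muscle, neurons, germ line, epidermis or embryo passed the threshold given below. The part of these tissues in the values of the kinase-like genes was not tested.

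With RIF, 6 of the 7 probe sets read at 5.22 or above on both arrays. With DMSO, 5 of these 6 were at background on both arrays, and that of T16G1.7 was low but above it. The exception was the probe set of E02C12.10 alone, at background in both groups. T16G1.6 (178563_at) read 7.31 and 7.29 on the RIF arrays, against 1.08 and 0.82 on the DMSO arrays. Both DMSO values lay within background, and the RIF arrays differed from each other by 0.03. The means were 7.30 ± 0.02 with RIF and 0.95 ± 0.18 with DMSO (SD, n = 2 each), a log2 difference of 6.35 with a standard error of 0.16 from limma. Where DMSO values were at background, as here, the fold is given only as a lower bound, with the highest background value in place of the DMSO mean. The bound concerns the DMSO side only. It takes the mean of the RIF arrays as it stands, so a single RIF array can give a smaller fold. T16G1.6 was at least 51.4-fold higher with RIF.

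T16G1.7 (179360_s_at) read 7.12 and 6.50 with RIF, against 2.12 and 2.58 with DMSO. Its DMSO values, unlike those of the other members, were above background on both arrays, so its difference of 4.47 (standard error 0.30, 22.1-fold) was measured between levels that both lay above background. The DMSO values are still low, where these data are compressed, so the size of the rise in the transcript is uncertain here too. The ending _s_at marks a probe set with probes shared among transcripts, and the span of T16G1.7 overlaps that of T16G1.2 in the RefSeq annotation (WBcel235). T16G1.2 itself read 1.01 and 0.62 with RIF and 0.72 and 1.10 with DMSO on its own probe set, which is background on every array.

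T16G1.4 was read by 2 probe sets. One (179093_at) gave 5.82 and 5.28 with RIF, against 0.85 and 1.35 with DMSO. The other (179094_s_at) gave 5.98 and 5.36 with RIF, against 1.20 and 1.04 with DMSO. On each array the second minus the first was between -0.31 and 0.36, and on both probe sets RIF replicate 1 was above RIF replicate 2, by 0.54 and 0.62. The log2 differences between the groups were 4.45 (standard error 0.29) and 4.54 (standard error 0.26). Both probe sets were read on the same arrays, so these errors are not independent and do not measure how far the probe sets agree. Against the highest background value, T16G1.4 was at least 15.3-fold and 16.6-fold higher with RIF.

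Of the E02C12 genes, E02C12.6 (186180_at) read 6.75 and 5.22 with RIF, against 0.85 and 1.22 with DMSO. Its groups were far apart, but it was the least even of the members within RIF, with a gap of 1.53 between the 2 RIF arrays. Among 3803 probe sets with a RIF mean of 5 to 8, the median gap was 0.27, and 1.58% had a larger gap than E02C12.6. The means were 5.99 ± 1.08 with RIF and 1.03 ± 0.26 with DMSO (SD, n = 2 each), a log2 difference of 4.96 with a standard error of 0.57. By the mean of the RIF arrays the rise was at least 20.7-fold, but RIF replicate 2 alone lay below that mean and gives a smaller fold. Leaving out RIF replicate 2 gave a difference of 5.72, and leaving out RIF replicate 1 gave 4.19.

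The probe set that names both E02C12.10 and E02C12.11 (186815_s_at) read 6.85 and 6.98 with RIF, against 0.67 and 0.67 with DMSO. Replicates lay within 0.13 of each other in both groups, and the log2 difference was 6.24 (standard error 0.14), a rise of at least 39.3-fold. E02C12.10 has a second probe set that names it alone (186845_at), and there it read 0.66 and 0.71 with RIF, against 0.54 and 0.75 with DMSO. These 4 values all lie within background, the groups overlap, and the log2 difference was 0.04 (standard error 0.16). The rise was thus seen on the shared probe set and not on the probe set of E02C12.10 alone. E02C12.11 has no probe set of its own, so the arrays do not say which of the 2 genes, or whether both, gave the signal. The annotated span of E02C12.11 overlaps that of E02C12.12, which was itself at background (0.80 and 0.99 with RIF, against 0.51 and 0.86 with DMSO).

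**Figure D1:**
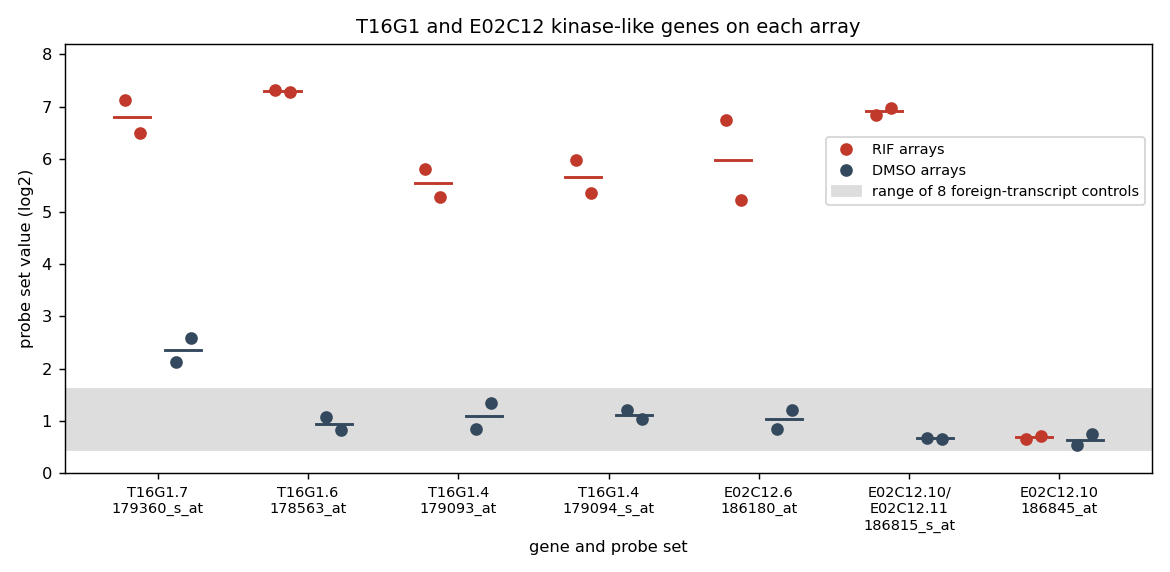
Values on each array (log2, vertical axis) of the 7 probe sets of the T16G1 and E02C12 kinase-like genes, with RIF arrays in red to the left of DMSO arrays in dark blue, a short bar at the mean of 2 arrays, and the range of the foreign-transcript controls (0.44 to 1.62) in grey. All RIF values but those of the probe set of E02C12.10 alone lie at 5.22 or above, and all DMSO values but those of T16G1.7 lie within the grey range.

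Over the 7 probe sets the median log2 difference was 4.54, against 0.03 over all probe sets tested. The study's threshold asked for a change of 2-fold or more at an unadjusted p below 0.05. In limma 6 of the 7 passed it upwards and 0 downwards, where 1.14% of all probe sets passed upwards (257 of 22548), and 2.67% in either direction. The 2 RIF arrays were above the 2 DMSO arrays on the same 6, as on 22.2% of all probe sets. Since the genes were picked for this difference, nothing is read from either count. On the log2 scale, the RIF means of the 5 probe sets with DMSO means within background exceeded the highest background value by 5.68 (T16G1.6), 5.30 (E02C12.10/E02C12.11), 4.37 (E02C12.6), and 4.05 and 3.93 (T16G1.4). The order of these 5 by their differences rests in part on DMSO values that were not measured above background.

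The change from background to a clear signal was uncommon on these arrays. Both DMSO arrays were at or below the highest background value for 9772 probe sets. Of these, 5 read above 5 on both RIF arrays, and the 5 were those of T16G1.6, T16G1.4 (both probe sets), E02C12.6 and E02C12.10/E02C12.11. The same 5 were found at a level of 4, and 10 probe sets at a level of 3, where those of nep-14, ugt-32, cyp-33C1, cyp-33C2 and F47B8.10 joined them. In the other direction, 9580 probe sets had both RIF arrays at or below that value, and 0 of them read above 5 on both DMSO arrays, 1 (dod-22) above 4 and 11 above 3. These levels were chosen after the values were seen, and the counts are a description with no test. The kinase-like genes were themselves picked for a large difference between the same groups. Their place in these counts thus follows largely from that choice, and nothing is read from it.

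**Figure D2:**
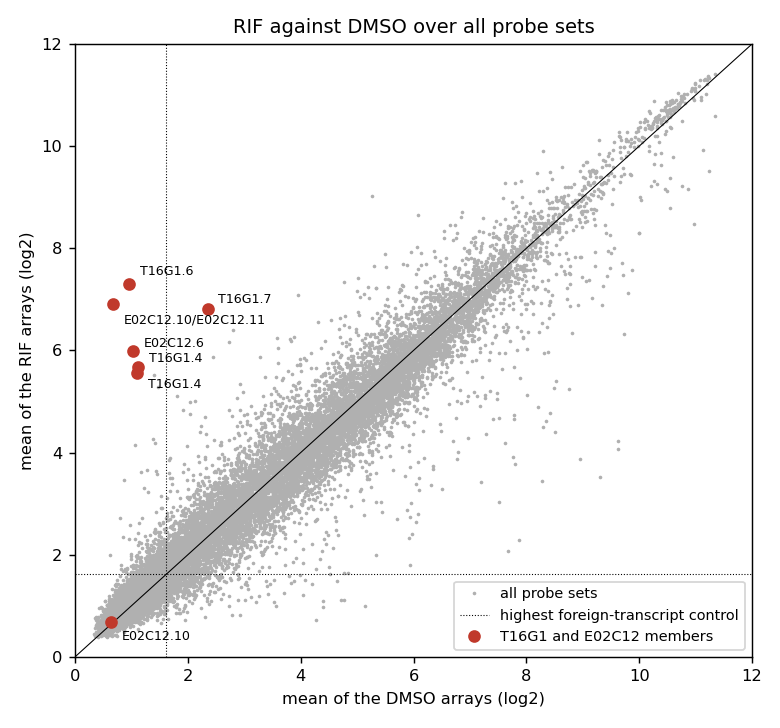
Mean of the 2 RIF arrays (log2, vertical axis) against the mean of the 2 DMSO arrays (log2, horizontal axis), with each of 22548 probe sets as a grey point, the probe sets of the T16G1 and E02C12 genes in red, the line of equal values, and dotted lines at the highest foreign-transcript control (1.62). Of the 7 red points, 6 lie far above the line, 5 of them left of the dotted vertical line, while E02C12.10 on its own probe set lies on the line at background in both groups.

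The 6 genes do not form 1 run on the chromosome. In the RefSeq annotation (WBcel235), 898 protein-coding genes lie between E02C12.11 and T16G1.7, and genes that did not pass the threshold lie within both groups. In the T16G1 group the order is T16G1.7, T16G1.6, T16G1.5, T16G1.4 and T16G1.3. T16G1.5, which lies between T16G1.6 and T16G1.4, read 2.51 and 2.54 with RIF, against 2.57 and 2.73 with DMSO. Its log2 difference was -0.13, with a 95% interval of -0.53 to 0.28 (adjusted p = 0.871 from limma). The interval leaves out a 2-fold change in the value of this probe set. The values are low, where these data are compressed, and the probe set has the ending _s_at. A 2-fold change of the transcript is thus not excluded. T16G1.3, next to T16G1.4, was at background on every array (0.71 and 0.82 with RIF, against 1.004 and 0.75 with DMSO), with a difference of -0.11 and a 95% interval of -0.57 to 0.35.

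In the E02C12 group the order is E02C12.6, E02C12.8, E02C12.9, E02C12.19, E02C12.10, E02C12.11 and E02C12.12. Right beside E02C12.6, E02C12.8 read 1.75 and 1.46 with RIF, against 1.66 and 0.97 with DMSO, and on a second probe set 2.84 and 1.64 with RIF, against 2.25 and 1.64 with DMSO. On both probe sets RIF replicate 1 was above both DMSO arrays and RIF replicate 2 was not, so the groups overlap. The differences were 0.29 and 0.30, and their 95% intervals (-0.51 to 1.10 and -1.04 to 1.64) hold both no change and a 2-fold rise. E02C12.9 was at background, with 0.64 and 0.81 with RIF against 0.44 and 0.64 with DMSO (difference 0.19, 95% interval -0.26 to 0.63). E02C12.12 had a difference of 0.21 (95% interval -0.32 to 0.74), and E02C12.19 has no probe set.

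The genes of both clones that are not among the 6 number 19, of which 16 have a probe set. Of these 16 probe sets, 0 passed the study's threshold in limma, 0 had an unadjusted p under 0.05 in limma or in the methods' t-test, and the lowest adjusted p was 0.647. Over all probe sets, 2.67% passed the threshold, and 8.47% had an unadjusted p under 0.05 in limma and 6.66% in the methods' t-test, so counts of 0 or 1 in lists of this size are near that background. The log2 differences of the 16 ran from -0.30 to 0.35, with a median of 0.12 against 0.03 over all probe sets, and 11 of the 16 had both group means within background, where a change is hard to measure. The upper 95% bound reached a 2-fold rise on 4 of the 16. The highest difference was that of gpa-3, a G protein alpha subunit of sensory neurons, with 0.84 and 1.01 with RIF, against 0.50 and 0.65 with DMSO, all of it background. Also at background in both groups were the chemoreceptor genes srx-46 (0.25) and srx-47 (0.01), the shared probe set of the transthyretin-like genes ttr-40 and ttr-49 (-0.05), the hedgehog-related grl-2 (0.15), pqn-67 (0.09) and T16G1.2 (-0.09). Read above background in both groups were eif-3.K, which encodes a subunit of a translation initiation factor (-0.30), pqn-68 (0.19) and T16G1.9 (0.04).

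The next 10 measured genes to each side of either group were then compared. They include genes of both clones already counted above, so the counts overlap. On both sides of the E02C12 group, 0 of 24 probe sets passed the threshold in limma or with the methods' t-test, with 1 at an unadjusted p under 0.05 in limma (try-5, a trypsin-like protease gene, 0.72, adjusted p = 0.581). The largest difference there was that of Y54B9A.1, with 8.46 and 8.97 with RIF, against 5.79 and 7.93 with DMSO. Its log2 difference of 1.86 came with a standard error of 0.78 and an adjusted p of 0.638 from limma. On both sides of the T16G1 group, 0 of 23 probe sets passed with either test, and 2 had an unadjusted p under 0.05 in limma and 2 in the methods' t-test. These counts, too, are near the shares over all probe sets. Those of limma were nid-1, which encodes the basement membrane protein nidogen (-0.91, adjusted p = 0.454), and dhrs-4, a short-chain dehydrogenase gene (0.97, adjusted p = 0.582). Their intervals were -1.41 to -0.41 and 0.02 to 1.92.

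**Figure D3:**
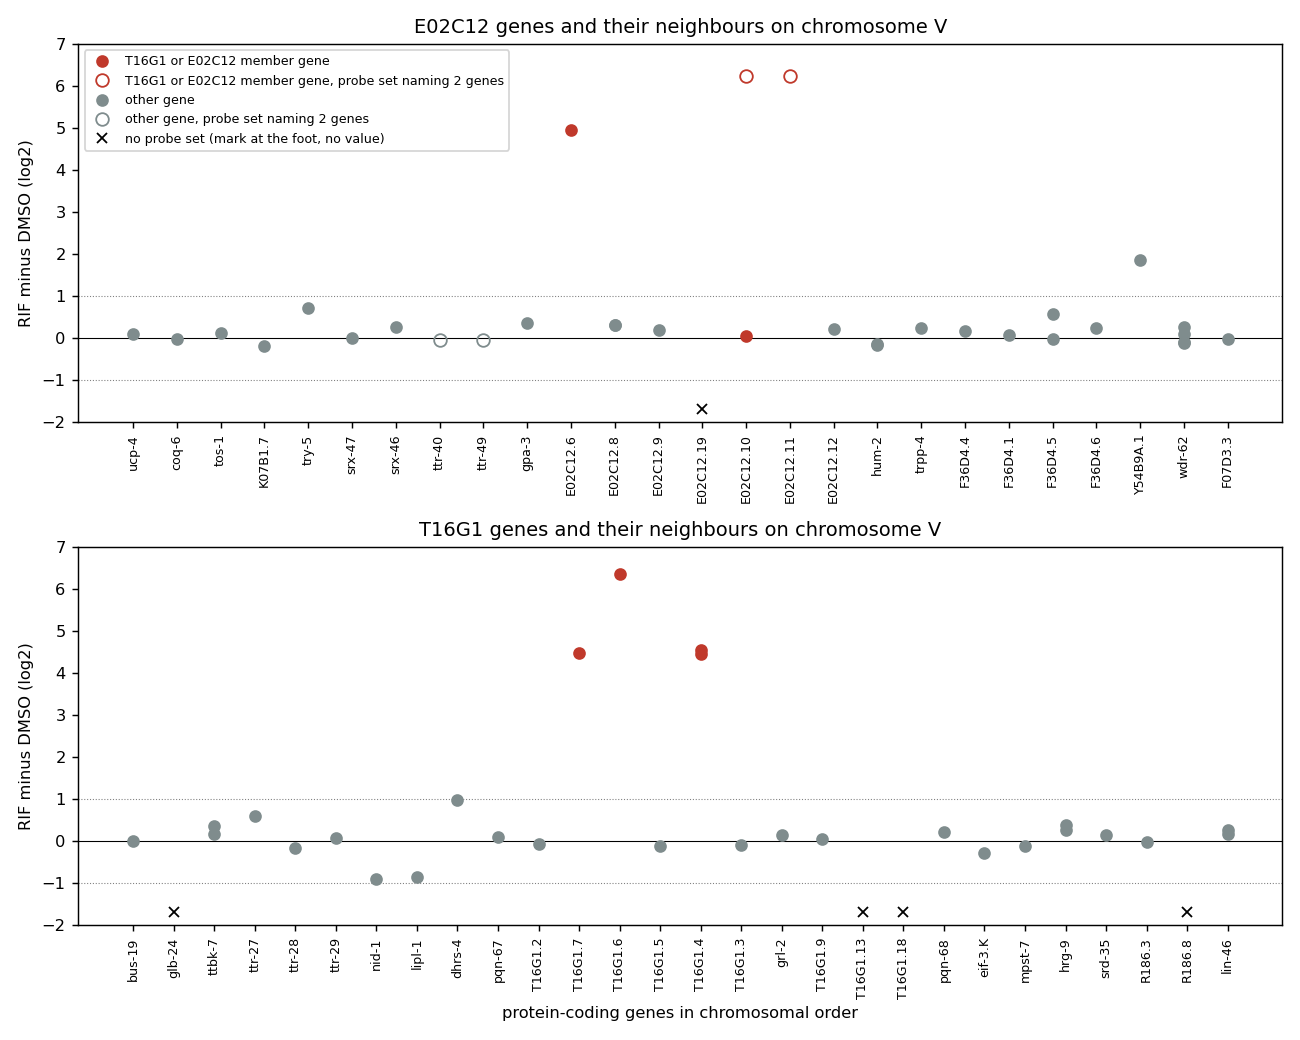
RIF minus DMSO (log2, vertical axis) for the protein-coding genes around the E02C12 group (top) and the T16G1 group (bottom), in the order in which they lie on chromosome V, with the 6 kinase-like genes in red, other genes in grey, open circles for probe sets that name 2 genes, crosses for genes with no probe set, and dotted lines at a 2-fold change. The red points at 4.45 to 6.35 stand beside or between grey points near 0, such as T16G1.5 at -0.13 and E02C12.8 at 0.29 and 0.30. The shared probe set of E02C12.10 and E02C12.11 is 1 measurement drawn at 6.24 under each of these genes. E02C12.10 also has a point at 0.04 from its own probe set. That of ttr-40 and ttr-49 is likewise drawn under each.

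The choline kinases, which phosphorylate choline or ethanolamine in the synthesis of membrane phospholipids, are the best known worm proteins with a related fold. Of their 9 probe sets for 7 genes, 1 rose and 0 fell at the study's threshold in limma, and the median difference was 0.04. ckb-2 read 6.40 and 6.93 with RIF, against 4.78 and 4.81 with DMSO. Both RIF arrays lay above both DMSO arrays, and the log2 difference was 1.88 (standard error 0.23, 3.67-fold, adjusted p = 0.289 from limma, between 0.141 and 1 under the alternatives). It did not pass an adjusted p of 0.05, and the other 8 probe sets had unadjusted p-values of 0.074 or more in limma. Their differences lay between -0.39 (ckc-1) and 0.23 (cka-2), with cka-1 at -0.35 and -0.08, ckb-1 at 0.04, ckb-3 at 0.05, ckb-4 at -0.19 and cka-2 also at 0.05. Both probe sets of cka-2 and that of ckb-3 were at background in both groups.

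To find genes with a like pattern, each probe set was expressed as its deviation from its own mean over the 4 arrays and set against the mean deviation of the 5 member probe sets that name 1 gene and rose. Likeness was taken as the Euclidean distance over the 4 arrays, where 0 would be the same pattern. The members themselves lay at 0.48 (T16G1.4), 0.53 (T16G1.7), 0.56 (T16G1.4), 0.62 (E02C12.6) and 1.50 (T16G1.6). The shared probe set of E02C12.10 and E02C12.11, which was not used for the mean, lay at 1.41, and E02C12.10 on its own probe set at 4.93. Other genes were sought only among probe sets that name 1 gene, with the closest probe set kept for each gene. The 5 closest of these were dhs-14, a short-chain dehydrogenase gene (1.33), ugt-36, a UDP-glucuronosyltransferase gene (1.33), C10C5.3 (1.47), pgp-9, which encodes a P-glycoprotein-type ABC transporter (1.57), and cror-2 (1.64). With 4 arrays in 2 groups, such likeness mostly reflects a difference of similar size.

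The levels of these 5 genes were as follows. dhs-14 read 8.97 and 9.07 with RIF, against 5.07 and 5.46 with DMSO. ugt-36 read 5.44 and 5.11 with RIF, against 1.81 and 1.12 with DMSO. Their log2 differences were 3.76 and 3.80. pgp-9 read 6.33 and 6.00 with RIF, against 2.87 and 2.57 with DMSO, a difference of 3.44. C10C5.3 read 6.86 and 5.93 with RIF, against 2.34 and 3.26 with DMSO, and of the 5 it was, like E02C12.6, clearly higher on RIF replicate 1. cror-2 read 4.92 and 6.13 with RIF, against 1.64 and 1.16 with DMSO, and was instead higher on RIF replicate 2.

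**Figure D4:**
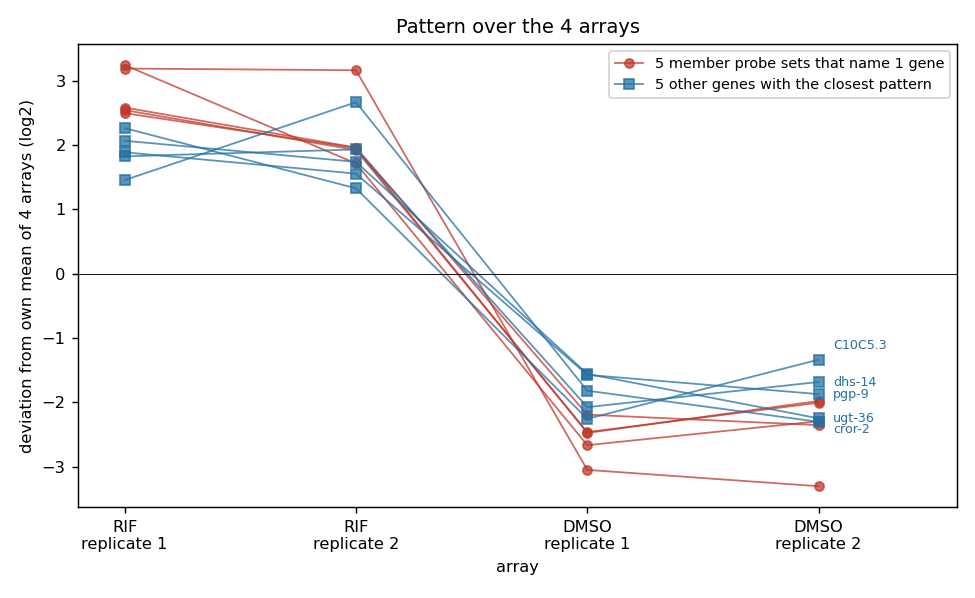
Deviation of each probe set from its own mean over the 4 arrays (log2, vertical axis) on the RIF and DMSO arrays (horizontal axis), for the 5 probe sets of T16G1.4, T16G1.6, T16G1.7 and E02C12.6 in red and the 5 closest other genes in blue, with lines joining the values of 1 probe set. All 10 are above 0 on both RIF arrays and below 0 on both DMSO arrays. E02C12.6 differs most between RIF arrays among the red ones (1.53) and cror-2 among the blue ones (-1.21).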

How the data were processed

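The values are those of Affymetrix expression arrays, 2 of worms given RIF and 2 of worms given DMSO, grouped by sample title. The authors deposited 1 log2 value per probe set and array. Their processing notes give Affymetrix Expression Console and RMA. In the methods, GeneSpring GX is the software named. RMA compresses low values, so the size of a rise out of background is uncertain. After leaving out 77 controls, 22548 probe sets were compared as deposited, RIF minus DMSO and two-sided, with limma 3.58.1 (R 4.3.3, lmFit, then eBayes with no trend) and Benjamini-Hochberg adjustment over all of them. A call needs a 2-fold change or more and an unadjusted p below 0.05. The number of arrays limits the precision. Probe sets were named from GEO's platform annotation (20766 name 1 gene, 887 several and 895 none), and RefSeq's gene table gave only names and gene order. The procedure was tested on simulated data.

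The genes, the lists and the comparisons were chosen with earlier results of these data known. Named are all members, the other genes of both clones, the choline kinases and the 5 genes of closest pattern, and further genes were named after their values were seen. Alternatives were quantile normalization, centring on the median or on 108 ribosomal protein probe sets, leaving out each array, a replicate block, a robust prior with a trend, a filter on level, no fold minimum and the methods' t-test. Relatives by protein sequence and promoters were not analysed here.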

Additional observations from a re-analysis of the deposited data

How the results depend on the processing

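The log2 differences of the T16G1 and E02C12 genes were followed under 10 alternatives of scaling, fit, filter or left-out array. They lay between 6.20 and 6.48 for T16G1.6, 4.18 and 4.85 for T16G1.4, 4.16 and 4.78 for T16G1.7, 4.19 and 5.72 for E02C12.6, and 6.09 and 6.31 for E02C12.10/E02C12.11. The difference of E02C12.10 on its own probe set changed sign in 3 of the 10. Since these genes were picked for this difference, nothing is read from calls on them under any setting. Of the other genes of either clone, 0 were called under any of the 10 and 0 with the t-test, and ckb-2 kept its call under the 10. Over all probe sets, the higher and lower calls numbered 257 and 346. Centring on the ribosomal protein probe sets of each array gave 170 higher and 507 lower (25.1% higher, against 42.6%), and the median of all differences was -0.13, against 0.03. With the methods' t-test there were 108 higher and 130 lower, and with no fold minimum 930 and 980. Leaving out 1 array, which takes the lone array to vary as the other group does, gave 205 to 464 higher and 304 to 735 lower (464 without DMSO replicate 1, 422 and 735 without DMSO replicate 2, 399 without RIF replicate 2). With the replicate block there were 305 higher and 379 lower. The labels give the groups a shared number only, and the deviations of same-numbered arrays had a correlation of 0.10. The comparison with relatives by protein sequence was not run. Transcripts near background limit what these arrays can show.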
